A study of Mus musculus with 12 samples.

Results

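The 10 genes described here are the mitochondrially encoded respiratory chain transcripts mt-Nd1, mt-Nd2, mt-Nd4, mt-Nd5, mt-Nd6, mt-Cytb, mt-Co1, mt-Co2, mt-Co3 and mt-Atp6. They were chosen by symbol, not by a measured value, and all 10 were among the 19775 genes of the deposited table. The table also listed 5 of the other genes of the mitochondrial genome, so that 15 of its 37 annotated genes had a value. RNA was sequenced from the whole brains of male C57BL/6N mice at about 120 days of age, with 4 mice each of wild-type (WT), heterozygous (HT) and homozygous (HM) Slc6a20a genotype. Slc6a20a encodes a transporter of proline and glycine, and the mutant allele lacks 1 of its exons. Mice of the 3 genotypes were offspring of heterozygous parents, and the labels name no treatment. Each library came from 1 brain and held polyadenylated RNA, so p-values below measure the spread between single mice. The unit throughout is the normalized count, the estimated reads of a gene after scaling for the depth of the library.

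Slc6a20a itself, the check of the labels, had 679 ± 70.1 normalized counts for WT (SD, n = 4), 345 ± 29.1 for HT and 64.5 ± 9.9 for HM, and no mouse of one genotype overlapped another. The summed normalized counts of a mouse lay between 33284951 and 33748623, and neuron markers were abundant in every library, with 192140 to 211897 normalized counts over 8 genes. Reads before scaling were not analysed here, so counting intervals could not be given.

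Mitochondria keep a small circular genome whose protein genes all encode subunits of the chain that burns nutrients to make ATP. The mt-Nd genes encode membrane subunits of complex I, which takes electrons from NADH. mt-Cytb encodes cytochrome b of complex III, mt-Co1 to mt-Co3 encode the catalytic core of cytochrome c oxidase (complex IV), and mt-Atp6 encodes part of the proton channel of ATP synthase. Both strands are transcribed as long precursors, which are cut mainly at the tRNAs that lie between the messages, so that many messages start from one precursor. Fragments of mitochondrial DNA have also been copied into nuclear chromosomes over evolution, where the annotation lists them as pseudogenes.

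In GRCm38, 9 of the genes lie on the plus strand of the mitochondrial chromosome and mt-Nd6 lies on the minus strand. mt-Nd1 is at chrM:2751-3707, mt-Nd2 at chrM:3914-4951, mt-Co1 at chrM:5328-6872 and mt-Co2 at chrM:7013-7696. mt-Atp6 is at chrM:7927-8607 and mt-Co3 at chrM:8607-9390, sharing 1 base. mt-Nd4 is at chrM:10167-11544, mt-Nd5 at chrM:11742-13565, mt-Nd6 at chrM:13552-14070 and mt-Cytb at chrM:14145-15288. Each is a protein-coding gene of a single exon. mt-Nd5 and mt-Nd6 overlap by 14 bases on opposite strands. The sources used here do not say whether the libraries kept strand. If they did not, reads from either strand over these genes cannot be told apart.

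Nuclear copies of these genes were searched among the annotated transcripts, because reads from identical transcripts are divided between them by estimation. A block of 7 pseudogenes on the minus strand of chromosome 1, chr1:24611535-24616197, ran in the same order as chrM:6390-11042. Over 4140 matched bases the block and the mitochondrial genes differed at 2. Gm28661 (chr1:24614885-24615565) was identical to 681 of the 684 bases of mt-Co2, Gm28437 (chr1:24613189-24613971) to 783 of the 784 bases of mt-Co3, and Gm10925 (chr1:24613974-24614651) to 678 of the 681 bases of mt-Atp6. Gm29216 (chr1:24615706-24616197) matched the last 483 bases of mt-Co1 with 1 substitution. Gm28439 matched the first 876 bases of mt-Nd4 without a difference and was not analysed here. The 3′ ends below, from the GENCODE M21 transcripts of GRCm38 and written 5′ to 3′, show how little separates each gene from its copy. Capitals mark the bases that only the mitochondrial gene holds.

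mt-Co2: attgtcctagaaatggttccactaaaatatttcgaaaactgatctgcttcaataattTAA

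Gm28661: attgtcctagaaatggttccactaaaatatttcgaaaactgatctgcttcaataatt

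mt-Co3: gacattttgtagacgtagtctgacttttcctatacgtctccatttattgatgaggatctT

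Gm28437: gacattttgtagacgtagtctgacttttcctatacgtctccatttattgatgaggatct

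mt-Atp6: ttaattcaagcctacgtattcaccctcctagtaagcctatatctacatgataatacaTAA

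Gm10925: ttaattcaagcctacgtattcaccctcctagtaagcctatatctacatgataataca

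Each shared stretch is several times longer than the 100-base reads, so a read that lies within it has the same letters under both names. mt-Co1 differs from its copy by the substitution A1066T, counted from 1 at the first base of mt-Co1. It stands in capitals in the stretch of 80 bases shown here for both, which starts at base 1063 of mt-Co1 and base 10 of Gm29216.

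mt-Co1: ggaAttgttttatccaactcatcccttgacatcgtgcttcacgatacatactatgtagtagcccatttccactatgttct

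Gm29216: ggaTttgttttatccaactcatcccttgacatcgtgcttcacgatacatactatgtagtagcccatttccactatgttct

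Copies on chromosome 2 differed more. Gm13341 (chr2:22587291-22587962) had 95.9% identity to mt-Co2, and Gm13340 (chr2:22588103-22589647) had 97.6% identity to mt-Co1. The 100 bases of mt-Co2 from base 445 are shown with both of its copies because they set a diverged copy beside a near-identical one. Capitals mark where mt-Co2 and Gm13341 differ.

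mt-Co2: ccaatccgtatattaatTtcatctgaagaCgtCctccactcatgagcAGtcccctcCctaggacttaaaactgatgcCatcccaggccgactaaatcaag

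Gm13341: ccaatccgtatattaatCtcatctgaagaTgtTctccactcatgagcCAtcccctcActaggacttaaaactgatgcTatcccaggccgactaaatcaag

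Gm28661: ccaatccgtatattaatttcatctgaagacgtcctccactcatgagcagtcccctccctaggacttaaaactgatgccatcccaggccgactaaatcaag

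The near-identical copies had far higher levels than the diverged ones. The diverged Gm13341 and Gm13340 had means of 18.7 and 28.1 normalized counts over the 12 mice, whereas Gm28661 had 193407, Gm10925 had 155760, Gm28437 had 154993 and Gm29216 had 37206. The table therefore listed more counts under the pseudogenes than under mt-Co2, mt-Co3 and mt-Atp6 themselves. The other 6 transcripts had no copy with a value in the table, and copies of theirs on other chromosomes were not analysed here.

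mt-Co2 varied more between mice than any other of the 10 transcripts. Its normalized counts were 28540, 34791, 67389 and 8068 in WT mice 1 to 4, 14290, 11990, 7221 and 13946 in HT mice, and 17638, 22368, 44261 and 30048 in HM mice. The highest mouse, WT3, had 9.33 times the count of the lowest, HT3, and WT mice held both a value above every mutant and a value among the lowest. Summed with its copies, mt-Co2 had 231629, 203303, 226459 and 226170 in WT, 216667, 232704, 210400 and 204864 in HT, and 207623, 210567, 224408 and 226870 in HM mice. In the sum the highest mouse had 1.14 times the lowest. The share of the sum listed under mt-Co2 ran from 3.43% in HT3 to 29.8% in WT3.

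mt-Co3 had normalized counts of 85610, 88194, 38875 and 55389 in WT, 38992, 36166, 48508 and 51415 in HT, and 26353, 20416, 99916 and 22279 in HM mice. HM mouse 3 held the highest value of the 12 while the other 3 HM mice held the lowest. Its copy Gm28437 had 106773 in HM3 and 167829, 175796 and 183487 in the other HM mice, so the mouse with the most mt-Co3 had the least of the copy. The sums of both were 221191, 198981, 222962 and 222333 in WT, 195541, 218582, 196477 and 193112 in HT, and 194182, 196212, 206689 and 205767 in HM mice. The share listed under mt-Co3 ran from 10.4% in HM2 to 48.3% in HM3.

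mt-Atp6 had normalized counts of 34976, 30020, 42401 and 31470 in WT, 31368, 27924, 27461 and 23770 in HT, and 35527, 35967, 32285 and 40792 in HM mice. Each HM mouse was above each HT mouse, and WT mice overlapped both. The sums with Gm10925 were 192860, 175600, 205025 and 196608 in WT, 183773, 204292, 178064 and 178616 in HT, and 175968, 184268, 194323 and 193690 in HM mice. In the sums HM and HT mice overlapped, and the highest of the 12 was a WT mouse. Between 13.3% and 21.1% of the sum stood under mt-Atp6.

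**Figure D1:**
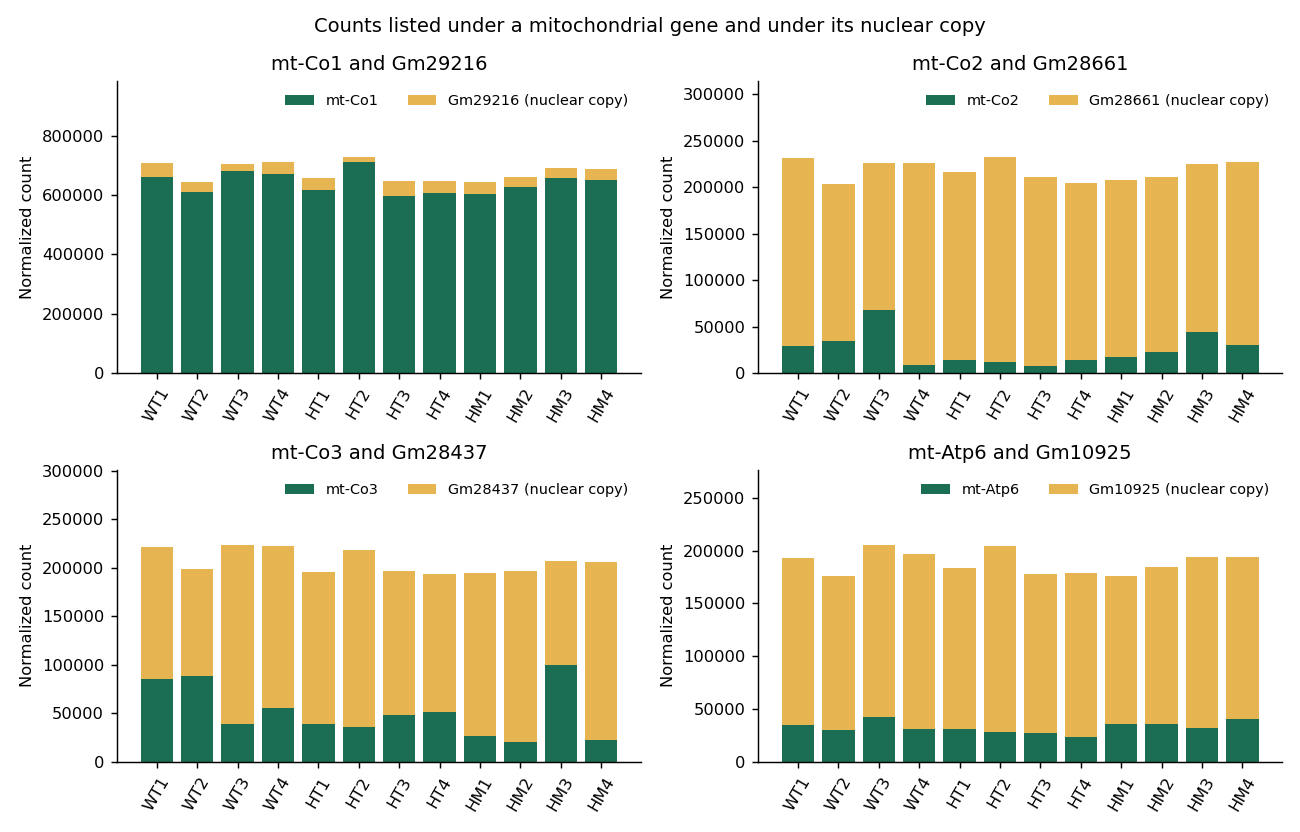
Normalized counts of mt-Co1, mt-Co2, mt-Co3 and mt-Atp6 (green) and of the copy of each on chromosome 1 (yellow), stacked, for each of the 12 mice. The height of the mt-Co2 bars differs by 1.14 times between the highest and lowest mouse, while the green part of them differs by 9.33 times.

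The gene and copy moved in opposite directions between mice for mt-Co3 and mt-Co2. Identical reads are divided between gene and copy, and the sums varied little, so a negative r is partly built in. The permutation p-values below take gene and copy as independent, so they describe the division and test nothing more. Over 12 mice and on log2(normalized count + 1), mt-Co3 and Gm28437 had Pearson's r of -0.854 (permutation p = 0.00037, BH-adjusted p = 0.00296 over 8 gene and copy pairs) and Spearman's rho of -0.853 (permutation p = 0.00079). Leaving out HM2 and HM3, which lay farthest from the median, r was -0.819, and after removing genotype means it was -0.933. For mt-Co2 and Gm28661 r was -0.807 (permutation p = 0.00155, BH-adjusted p = 0.0062) and rho was -0.818 (permutation p = 0.00159), with r of -0.746 without HT3 and WT3. mt-Co1 and Gm29216 had r of -0.723 (permutation p = 0.00506, BH-adjusted p = 0.0135) and rho of -0.622 (permutation p = 0.0346). That relation rested on HT2 and HT3, without which r was -0.404. mt-Atp6 and Gm10925 showed no such relation, with r of -0.118 (permutation p = 0.717) and rho of -0.035 (permutation p = 0.92).

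mt-Co1 was the most abundant of the 10. Its normalized counts were 660969, 608293, 679827 and 669609 in WT, 616706, 711305, 596944 and 605177 in HT, and 601533, 628132, 656074 and 650587 in HM mice. HT mice held both the highest and the lowest value. Between 92.1% and 97.6% of its sum with the copies stood under mt-Co1, so the copies changed it little.

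mt-Cytb had 219369, 201729, 222508 and 218940 normalized counts in WT, 201924, 226410, 198872 and 199540 in HT, and 205973, 207910, 217390 and 226694 in HM mice. The genotypes overlapped, and HT mouse 2 stood above the other 3 HT mice. 

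Of the complex I transcripts, mt-Nd1 had 155175, 138032, 155819 and 148421 in WT, 143841, 162588, 133886 and 131889 in HT, and 136323, 141123, 156806 and 161327 in HM mice. mt-Nd2 had 105467, 100163, 113115 and 107194 in WT, 107513, 116382, 94563 and 96199 in HT, and 102689, 102114, 116930 and 112840 in HM mice. mt-Nd4 had 174729, 171738, 191247 and 186406 in WT, 171439, 195618, 169605 and 172966 in HT, and 174568, 183576, 186587 and 187715 in HM mice. In each of these 3 genes the range of one genotype overlapped the ranges of the others, and HT mouse 2 was the highest HT mouse. mt-Nd5, the longest of the 10, had 110028, 117452, 134850 and 134494 in WT, 105825, 130035, 118763 and 119956 in HT, and 104474, 113723, 120891 and 132332 in HM mice. mt-Nd6, which is transcribed from the other strand, had 27900, 25309, 31942 and 30394 in WT, 22962, 28565, 28341 and 26104 in HT, and 21736, 24199, 25580 and 30349 in HM mice. HM mouse 1 was the lowest and WT mouse 3 the highest for both.

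**Figure D2:**
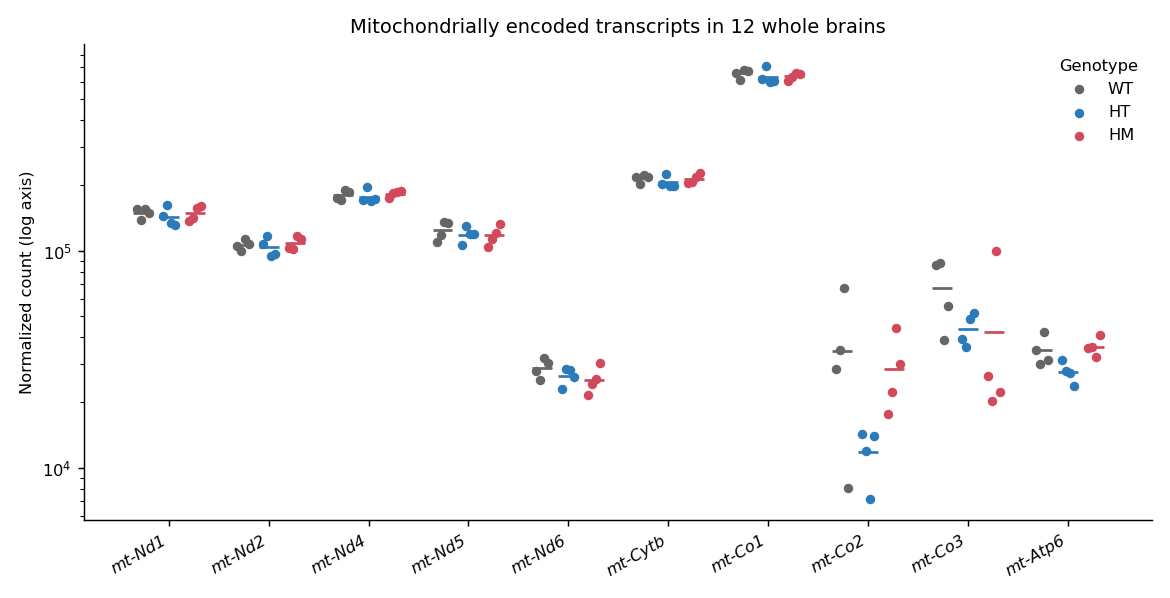
Normalized counts of the 10 transcripts on a log axis, with 1 point per mouse and a bar at the mean of each genotype (WT grey, HT blue, HM red). The points of mt-Co2 and mt-Co3 are spread far more widely than those of the other transcripts, and HM and HT mice are apart for mt-Co2 and mt-Atp6.

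Across the 12 mice the coefficient of variation was 69.9% for mt-Co2, 52.5% for mt-Co3 and 16.5% for mt-Atp6. It was 4.96% for mt-Nd4, 5.03% for mt-Cytb, 5.69% for mt-Co1, 7.04% for mt-Nd2, 7.48% for mt-Nd1, 8.95% for mt-Nd5 and 11.7% for mt-Nd6. Summing with the copies brought mt-Co2 to 4.92%, mt-Co3 to 5.85%, mt-Atp6 to 5.63% and mt-Co1 to 4.49%. For 494 genes outside the mitochondrial genome with a mean of at least 10000, the median was 3.99%. All 494 varied less than mt-Co2 and mt-Co3 as listed, and after summing 360 and 423 of them did.

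The order of the transcripts per kilobase of gene also turned on the copies. As listed, the means over 12 mice per kilobase were 414518 for mt-Co1, 185552 for mt-Cytb, 153712 for mt-Nd1, 130999 for mt-Nd4 and 102374 for mt-Nd2. Below them stood mt-Nd5 with 65918, mt-Co3 with 65063, mt-Nd6 with 51924, mt-Atp6 with 48209 (SD 7968) and mt-Co2 with 36617 (SD 25596). Neighbours among the lowest 5 differed by less than the larger SD of the pair. With the copies added, mt-Co2 rose to the second place with 319403 ± 15699 per kilobase (SD, n = 12), after mt-Co1 with 438617 ± 19713. mt-Atp6 followed with 276932 ± 15580 and mt-Co3 with 262758 ± 15359, which differed from each other by less than 1 SD. mt-Cytb then took the fifth place, and mt-Nd5 with 65918 ± 5896 and mt-Nd6 with 51924 ± 6086 stood last. On this scale mt-Co1, mt-Co2, mt-Co3 and mt-Atp6 were above each of the 5 complex I messages among the 10.

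The 10 transcripts took 4.81%, 4.55%, 5.01% and 4.78% of all normalized counts in WT mice 1 to 4, 4.33%, 4.91%, 4.26% and 4.27% in HT mice, and 4.26%, 4.38%, 4.94% and 4.73% in HM mice. The mean was 4.79% ± 0.191 for WT, 4.44% ± 0.313 for HT and 4.58% ± 0.309 for HM (SD, n = 4), and the ranges of the genotypes overlapped. mt-Co1 was 41.5% of the total of the 10, mt-Cytb 13.8% and mt-Nd4 11.7%, while mt-Co2 was 1.59%. The copies held a further 1.38% to 1.78% of all counts.

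With the copies the share was 6.44%, 5.92%, 6.59% and 6.55% in WT, 5.98%, 6.69%, 5.91% and 5.84% in HT, and 5.88%, 6.00%, 6.38% and 6.42% in HM mice. The 12 mice fell on either side of a gap. In 6 of them (WT2, HT1, HT3, HT4, HM1 and HM2) the share was between 5.84% and 6.00%, and in the other 6 (WT1, WT3, WT4, HT2, HM3 and HM4) it was between 6.38% and 6.69%. Each genotype had mice on both sides, with 3 WT, 1 HT and 2 HM mice on the higher. In whole-brain RNA, fewer cells of a type and less RNA per cell cannot be told apart.

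**Figure D3:**
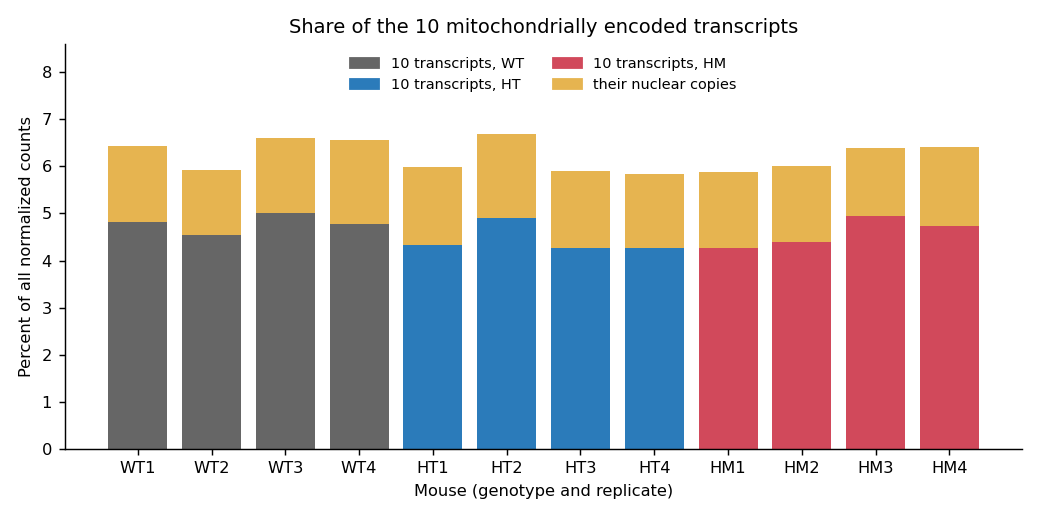
Percent of all normalized counts held by the 10 transcripts (grey WT, blue HT, red HM) and by their nuclear copies (yellow, stacked on top) in each mouse. No mouse has a summed share between 6.00% and 6.38%, and mice of each genotype stand on both sides of that gap.

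Most of the 10 moved together between mice. With copies summed, all 10 transcripts of WT3, WT4 and HT2 were above their 12-mouse means, and 0 of 10 were above in WT2, HT4 and HM1. Over the 10 transcripts the median level of a mouse ran from 94.4% of the mean in HT4 to 107.8% in HT2.

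As listed, 12 of the 45 pairs of transcripts covaried over the 12 mice at a BH-adjusted permutation p under 0.05, and all 12 were among the 7 transcripts other than mt-Co2, mt-Co3 and mt-Atp6. The 21 pairs of those 7 had a median r of 0.796 and all were positive. The 24 pairs with mt-Co2, mt-Co3 or mt-Atp6 had a median r of 0.177, and 0 of them passed. With copies summed, 39 of the 45 pairs passed, 23 of these 24 among them.

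For the genes as listed, the closest pair was mt-Nd1 and mt-Cytb, with r of 0.946 (permutation p = 3e-05, BH-adjusted p = 0.00112). Its rho was 0.909 (permutation p = 0.0001), and r was 0.925 without HT2 and HT4. Within the 6 mice of lower share r was 0.524, and within the 6 of higher share it was 0.748. mt-Nd5 and mt-Nd6, neighbours on opposite strands, had r of 0.877 (permutation p = 0.0003, BH-adjusted p = 0.0027), rho of 0.888 (permutation p = 0.00031) and r of 0.796 without HM1 and WT3. Within the lower and the higher 6 mice r was 0.909 and 0.688. Whether the libraries kept strand is not known, so reads of the opposite strand may be counted under either gene. Their part in this r was not tested. mt-Nd2 and mt-Nd6 had the lowest r of the 21 pairs, 0.319 (permutation p = 0.311), with rho of 0.322 (permutation p = 0.31). Both members of that pair belong to complex I. With copies summed, the closest pair was mt-Co1 and mt-Co2, with r of 0.958 (permutation p = 3e-05, BH-adjusted p = 0.00045).

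Within the sets of lower and higher share the median correlations were lower, but not every pair was, as mt-Nd5 and mt-Nd6 in the lower set show. The sets were drawn from the summed values of these same transcripts after those were seen, which narrows the range within a set and by itself lowers r, so the values are a description of 6 mice each and nothing is read from them. Over the 21 pairs of the 7 transcripts the median r was 0.272 within the lower 6 mice and 0.403 within the higher 6. With copies summed the median over all 45 pairs was 0.232 and 0.356. After removing genotype means instead, the median r of the 21 pairs was 0.793.

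**Figure D4:**
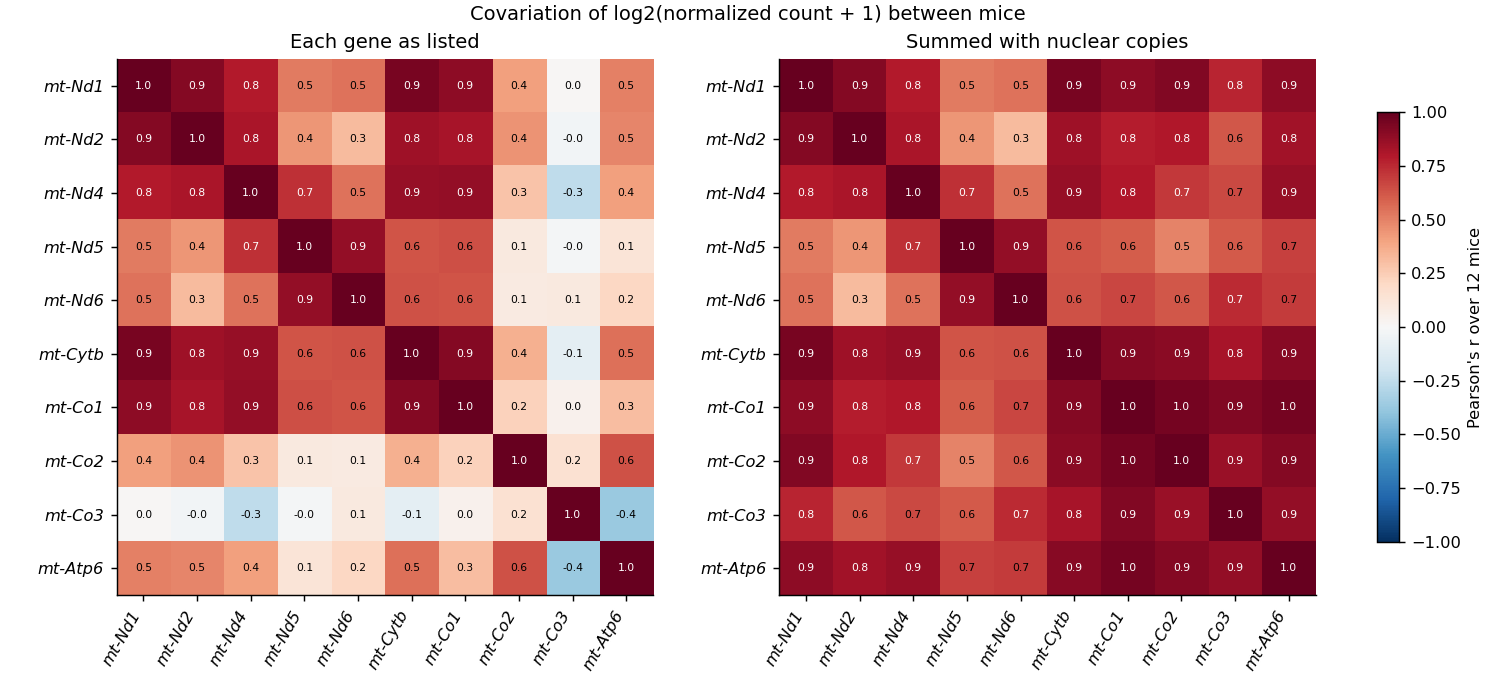
Pearson's r between each pair of the 10 transcripts over 12 mice, with each gene as listed (left) and summed with its nuclear copies (right), from -1 (blue) to 1 (red). The rows of mt-Co2, mt-Co3 and mt-Atp6 are pale on the left, with a median r of 0.177, and red on the right, where 39 of the 45 pairs pass.

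HT mice were compared with WT mice to ask what loss of 1 Slc6a20a allele changed. None of the 10 transcripts passed an adjusted p of 0.05 (limma with BH adjustment over 18004 genes), against 0.00555% of all genes tested. All 10 had lower means in HT, with a median log2 fold change of -0.07 beside 5.09e-05 for all genes. At an unadjusted limma p under 0.05 the count was 3 of 10 (6.42% of all genes). All 3 were lower, where 3.26% of all genes were lower and 3.16% higher at that level, and 0 of 10 had groups that did not overlap (3.73% of all genes). The 3 under that level were mt-Co2 (log2 fold change -1.24, SE 0.46), mt-Co3 (-0.55, SE 0.21) and mt-Atp6 (-0.32, SE 0.10, adjusted p = 0.765), the 3 transcripts whose copies hold most of their sum. The mt-Co2 value ran from -0.80 without WT3 to -1.82 without WT4, where its adjusted p was 0.153 by limma. Summed with the copies they differed by -0.04 (SE 0.05), -0.11 (SE 0.05) and -0.05 (SE 0.06), and 0 of 10 passed the unadjusted level. The other 7 ranged from -0.12 for mt-Nd6 to -0.03 for mt-Nd4.

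The red blood cell markers moved with this comparison. All 5 of the list (Alas2 and the globin genes Hbb-bt, Hbb-bs, Hba-a1 and Hba-a2) were lower in HT at an unadjusted limma p under 0.05, and 0 passed the adjusted threshold. Their summed normalized counts ran from 6495 to 8717 in HT, 7780 to 21984 in WT and 5859 to 29023 in HM mice, and none was at 0. Their part in the results on the 10 transcripts was not tested.

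HM mice were compared with WT mice to ask what loss of both alleles changed. None of the 10 passed the adjusted threshold (0.0111% of 18004 genes did), and 3 had higher and 7 lower fitted values in HM. The median log2 fold change was -0.01, beside -2.9e-04 for all genes. mt-Co3 had a log2 fold change of -0.94 (SE 0.42, adjusted p = 0.7 by limma) and was the 1 transcript under an unadjusted 0.05, where 6.99% of all genes were, 3.05% lower and 3.93% higher. The groups overlapped for all 10 transcripts, and did not for 4.22% of all genes. Without HM mouse 3, which held the highest mt-Co3 value, its log2 fold change was -1.47. Summed with Gm28437 it was -0.11 (SE 0.04, adjusted p = 0.668 by limma), the 1 sum under an unadjusted 0.05. The log2 fold change of mt-Nd6 was -0.19 (SE 0.09), mt-Nd5 -0.08 (SE 0.08), mt-Atp6 0.07 (SE 0.09), and mt-Nd1, mt-Nd2, mt-Nd4, mt-Cytb and mt-Co1 lay between -0.05 and 0.03. mt-Co2 had -0.01 with an SE of 0.48, an interval from -1.06 to 1.04. Of 6 choroid plexus markers, 3 were lower in HM than in WT at an unadjusted limma p under 0.05, with sums of 9967 to 18099 in HM and 15364 to 19945 in WT, and none was at 0. At the same level 2 of 6 endothelial markers and 1 of 8 neuron markers were higher in HM, and 1 of 6 microglia markers was lower. The part of these lists was not tested.

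HM and HT mice differ in 1 allele and were compared directly. None of the 10 passed the adjusted threshold (0.00556% of 17986 genes did). mt-Co2 was higher in HM by 1.23 on the log2 scale (SE 0.26, adjusted p = 0.474 by limma) and mt-Atp6 by 0.39 (SE 0.08, adjusted p = 0.456 by limma). Both were under an unadjusted 0.05, where 3.74% of all genes were, 2.11% higher and 1.62% lower. For both genes each HM mouse was above each HT mouse, and 2.38% of all genes tested did not overlap in one or the other direction. With the copies summed, the difference was 0.01 (SE 0.04) for mt-Co2 and 0.01 (SE 0.05) for mt-Atp6, and 0 of 10 did not overlap. The 95% interval of the summed difference was -0.08 to 0.10 for mt-Co2 and -0.09 to 0.11 for mt-Atp6. Of the red blood cell markers, 4 of 5 were higher in HM than in HT at an unadjusted limma p under 0.05, and 3 of 6 microglia markers were lower. The sums of the microglia markers were 5110 to 5826 in HM and 5922 to 6202 in HT mice, and none was at 0. The part of either list was not tested.

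mt-Co3 passed the threshold in HM against HT when HM mouse 3 was left out, at -0.92 on the log2 scale and an adjusted p of 0.0302 by limma, where the value with that mouse was -0.39 (SE 0.38). Summed with its copy and without HM3 it did not pass. The 3 comparisons share their mice pairwise, so their values are not independent of each other.

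**Figure D5:**
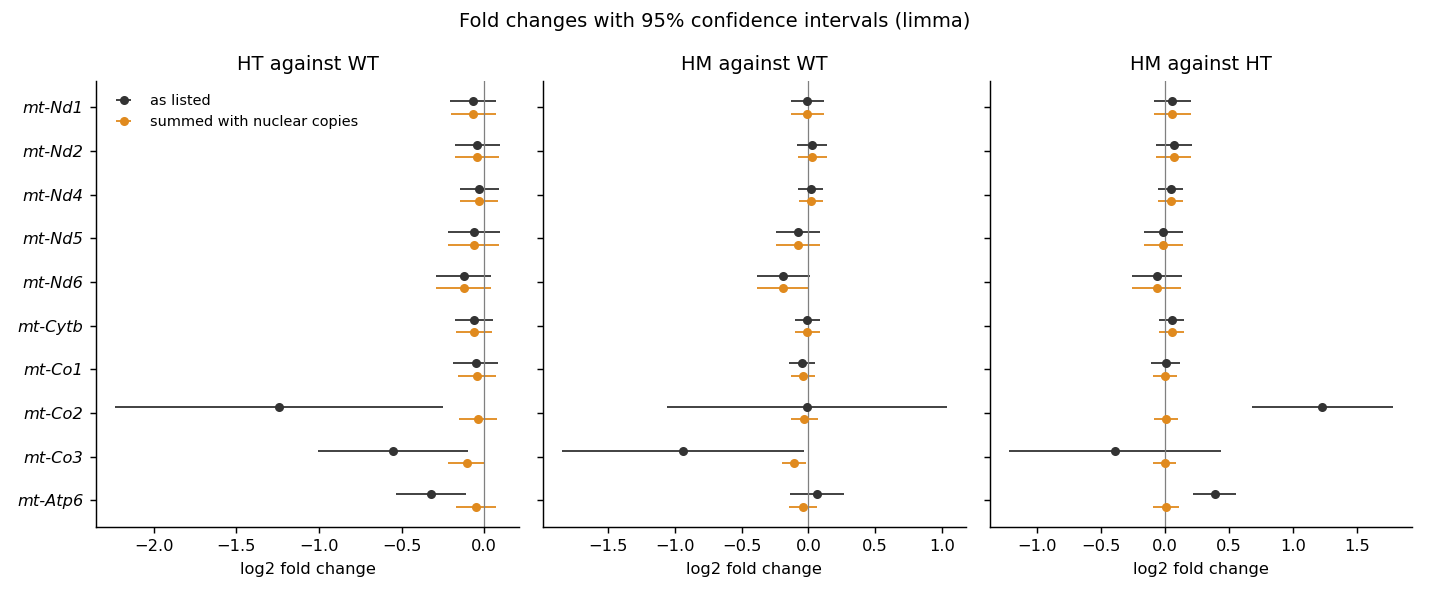
log2 fold changes of the 10 transcripts in HT against WT, HM against WT and HM against HT, as listed (black) and summed with nuclear copies (orange), with 95% confidence intervals from limma. The black points of mt-Co2, mt-Co3 and mt-Atp6 lie as far out as -1.24, -0.94 and 0.39, and the orange values lie between -0.19 and 0.07.

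Nuclear genes that serve the mitochondrial genome were read from the same fits. Of 36 genes for its transcription, RNA processing and copying, 0 passed the adjusted threshold in the 3 comparisons. Polg, the catalytic subunit of the mitochondrial DNA polymerase, had 3053 ± 149 normalized counts for WT (SD, n = 4), 2719 ± 90.4 for HT and 2738 ± 101 for HM. The difference from WT was -0.17 on the log2 scale for HT (SE 0.05, adjusted p = 0.752 by limma) and -0.16 for HM (SE 0.05, adjusted p = 0.643). Mterf1b, a transcription termination factor, had a log2 difference of -0.52 (SE 0.18) in HT against WT, and Slirp, which stabilizes mitochondrial messages with Lrpprc, had -0.23 (SE 0.10) in HM against WT. These were the genes of the list under an unadjusted p of 0.05, 2 of 36 lower in each comparison with WT and 0 between HM and HT. Of all genes, 3.26% in HT and 3.05% in HM were lower than WT at that level.

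Among 15 regulators of biogenesis and markers of mitochondrial content, 0 passed the adjusted threshold. Cs, citrate synthase, had 6725 ± 82.7 normalized counts for WT (SD, n = 4), 7206 ± 173 for HT and 7356 ± 111 for HM, with log2 differences from WT of 0.10 (SE 0.04) and 0.13 (SE 0.03). Ppargc1b, a coactivator of biogenesis genes, had 0.25 (SE 0.11) in HT against WT. At an unadjusted p under 0.05, 2 of 15 genes were higher in HT and 1 in HM against WT, where 3.16% and 3.93% of all genes were higher, and 0 between HM and HT.

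Among 22 nuclear-encoded subunits of the same complexes, 0 passed the adjusted threshold, and 1 in HT and 4 in HM were lower than WT at an unadjusted p under 0.05, where 3.26% and 3.05% of all genes were lower. Cox7a2, a subunit of the complex that holds the mt-Co proteins, had 2598 ± 124 normalized counts for WT (SD, n = 4), 2352 ± 70.3 for HT and 2297 ± 42.6 for HM. The difference from WT was -0.14 on the log2 scale for HT (SE 0.05) and -0.18 for HM (SE 0.04, adjusted p = 0.553 by limma). Cox6c of the same complex had -0.14 (SE 0.06) and Ndufv2 of complex I had -0.14 (SE 0.06) in HM against WT. The median of the list was -0.03 in both comparisons with WT.

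Genes outside the mitochondrial genome with the pattern closest to the 10 transcripts were sought among 13105 with a mean of at least 100, by Pearson's r over 12 mice and with no test. The closest to the mean of the 10 as listed were Mt1 (r of 0.901) and Mt2 (r of 0.872), which encode metallothioneins, small proteins that bind zinc and copper in the cytosol. Khdc4 (0.863), Slc44a1 (0.857), a choline transporter, and B4galnt4 (0.849) followed. The mean of the 10 was taken on log2 values without scaling each transcript. mt-Co2 and mt-Co3, which varied most as listed, can therefore weigh most in it. With copies summed the closest were other genes, among them Tifa (0.927), Chchd5 (0.911), C1qb (0.901) and Lyar (0.85). For mt-Co2 as listed, they were Rps4l (0.854), Kcnn2 (0.846), Gpr22 (0.821), Dhx36 (0.82) and Ash2l (0.815).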

How the data were processed

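The deposited signal is a table of normalized counts. Per the labels and the methods, the authors quantified reads of poly-A RNA against GRCm38 with Salmon 1.1.0 and GC correction, imported gene sums with tximport and scaled them with DESeq2 1.30.1. The annotation release is not given in the sources used here. Salmon divides reads that fit several transcripts between them by estimation, which bears on genes with near-identical copies. No count model was fitted to these values. Each pair of genotypes was tested with limma 3.58.1 (R 4.3.3) after taking log2(normalized count + 1), using limma's trend option for the variance, in genes with a mean of at least 10 over 8 mice, with Benjamini-Hochberg (BH) adjustment. Fold changes on that scale understate the change of low genes. The test was tested on simulated data.

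Symbols came from GENCODE M21, which held 19758 of 19775 identifiers. Copies were found with blastn 2.17.0 (at least 100 bases at 90% identity) and summed with their gene. Correlations used 100000 permutations, two-sided. Named were the 10 transcripts, other mitochondrial genes, copies, the 3 lowest p-values of each list and the 5 closest patterns, of which 1 is not reported here. The members and lists were chosen with earlier results of these data known, and mice were split at the gap in their summed share after it was seen. Alternatives were pseudocounts, filters, scalings, left-out mice, blocks and sums with copies.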

Additional observations from a re-analysis of the deposited data

Results flagged for a closer look

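In groups of 4 mice, a mouse was picked out where its gap to the nearest other exceeded Dixon's critical value as a share of the range of its group. Over 48 groups chance flags about 1 in 20. HT mouse 2 was picked out as the highest HT mouse for mt-Nd4 (195618 normalized counts, gap 0.871 of the range) and for mt-Cytb (226410, 0.889). It was also the highest for mt-Co1 summed with its copies (728632, 0.859) and for mt-Co3 summed with its copy (218582, 0.868). The share of all counts of the 10 transcripts in that mouse was 4.91% (0.884), and with nuclear copies 6.69% (0.835). WT mouse 2 was picked out as the lowest WT mouse for summed mt-Co1 (643459, 0.909) and summed mt-Co3 (198981, 0.926). HM mouse 3 was picked out for mt-Co3 as listed (99916, 0.925), and was not picked out once the copy was added.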

How the results depend on the processing

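Of the log2 fold changes of the 10 transcripts in 3 comparisons, 16 of 30 kept their sign under every alternative and 14 did not. Those in HT against WT were lower under all of them, but their size depended on single mice. mt-Nd2 came to -1.4e-04 without HT3 and mt-Nd4 to -0.0033 without WT3, while mt-Nd1 reached -0.13 and mt-Co1 -0.11 without HT2. No transcript passed the adjusted threshold under any alternative other than leaving out HM mouse 3. With nuclear copies summed, 39 of the 45 pairs covaried (12 as listed) and mt-Atp6 in HM against WT turned to -0.040. With mice blocked by the leading digits of the animal numbers in the column names, HM against WT rests on HM3 and HM4 with WT1 and WT2, since the other mice share their digits with no mouse of the other genotype. It turned to 0.12 for mt-Nd1, 0.15 for mt-Nd5, 0.068 for mt-Nd6, 0.078 for mt-Cytb, 0.043 for mt-Co1 and 0.21 for mt-Co2. HM against HT rests on HM4 with HT1 and HT2, an arm of 1 mouse assumed to vary like the others, so its signs and calls carry little weight. It turned to 0.17 for mt-Nd5, 0.24 for mt-Nd6 and -0.026 for mt-Co1, and 3 genes were called. Correcting for GC content gave 0.00795 for mt-Nd1, 0.00309 for mt-Cytb and 0.00153 for mt-Co2 in HM against WT, and -3.8e-04 for mt-Co1 in HM against HT. With no filter on low values 2 genes were called in HM against HT. Summing and leaving out HM3 together, chosen after seeing the data, gave -0.0084 for mt-Nd2 and -0.059 for mt-Atp6 in HM against WT, and -0.012 for mt-Co1, -0.0071 for mt-Co2 and -0.011 for mt-Atp6 in HM against HT, with 6 genes called. The cause was not tested.

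Leaving out 1 mouse at a time gave 1 to 5 genes called in HT against WT, 2 to 3 in HM against WT and 1 to 7 in HM against HT, and 0 to 1 of the 10 transcripts in the last. In HM against WT the ranges that crossed 0 were -0.046 to 0.035 for mt-Nd1, -0.0084 to 0.057 for mt-Nd2, -0.0075 to 0.044 for mt-Nd4, -0.039 to 0.011 for mt-Cytb and -0.59 to 0.43 for mt-Co2. In HM against HT they were -0.069 to 0.045 for mt-Nd5, -0.15 to 0.010 for mt-Nd6 and -0.020 to 0.064 for mt-Co1.

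Mice of the same number in different genotypes did not deviate together (r of -0.076 to 0.098), so the numbers were not taken as pairs. With the replicate number as a block, 1 gene was called in HM against WT in place of 2, 1 in each other comparison, and 0 of the 10 transcripts. With 4 mice a group and 1 brain each, the depth of single libraries before scaling is unknown.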

Other observations

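The mitochondrial ribosomal RNAs did not have their lowest mice where the messages did. HM mouse 3, on the higher side of the gap in the share of the 10 transcripts, had the lowest mt-Rnr1 (53844 normalized counts, others 58669 to 72105) and the lowest mt-Rnr2 (77753, others 80087 to 100932) of the 12 mice. mt-Rnr2, the RNA of the large mitochondrial ribosomal subunit, had a log2 fold change of -0.15 (SE 0.06, adjusted p = 0.768 by limma) in HT against WT. The libraries were made from polyadenylated RNA.

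The short messages mt-Nd3 and mt-Nd4l also had copies in the block on chromosome 1. mt-Nd3 had 4028 to 8608 normalized counts and its copy Gm28438 6062 to 11219. Under mt-Nd3 stood 30.4% to 55.2% of the sum, and under mt-Nd4l 12.1% to 22.0% of its sum with Gm10222. Gm28438 had a log2 fold change of -0.33 in HM against WT (SE 0.07, adjusted p = 0.553 by limma) and mt-Nd3 had -0.02 (SE 0.14).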
